A study of Mus musculus with 30 samples.

Results

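The embryos described here lacked *Dis3* and were sequenced one by one at 2 ages, embryonic day 2.5 (E2.5) and E2.75. They were selected by their labels, genotype Null at either stage, and made up 7 of the 23 single embryos and 7 of the 30 samples of the series, with 4 embryos at E2.5 and 3 at E2.75. All embryos came from intercrosses of *Dis3*+/- mice whose females had received hormones (PMSG, then hCG), and the labels name KSOM medium at 37 ºC for embryo culture; the knockout founders were made in B6D2F1 zygotes and gave 2 lines that differ at the repaired junction, and the litter and line of each sequenced embryo are not given in the sources used here. The other embryos were wild-type (6 at E2.5 and 3 at E2.75) and het (2 at E2.5 and 5 at E2.75). Each mother carried a working copy of *Dis3*, so null embryos could still hold maternal product. Polyadenylated RNA of each embryo was captured on oligo-dT, ERCC spike-ins were added, and the remaining DNA was used to genotype it. The comparison asks which genes still changed with age when *Dis3* was absent. The sources used here name no collection or library batch. If the stages were collected or prepared apart, stage and batch cannot be told apart, in wild-type and het embryos as in null embryos.

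DIS3 is a ribonuclease of the RNA exosome, the complex that degrades RNA from its 3′ end. The exosome is a ring of core subunits with no activity of their own, to which DIS3 or EXOSC10 is bound in the nucleus, and adaptor complexes bring it non-coding transcripts, faulty mRNAs and rRNA precursors. At the ages studied here mouse embryos compact, polarize and form the morula while maternal transcripts are lost and transcripts of the embryonic genome rise.

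The null allele was made with a pair of Cas9 guides that flank exons 3 to 5. They are printed because they define the genotype of all 7 embryos, in the 5′ to 3′ direction with the protospacer adjacent motif, which is not part of the guide, in capitals.
Left guide: gagttgaatggttgattcttTGG
Right guide: cctccctggtctcgtttgttCGG
The left guide had 1 match in GRCm38, on the minus strand at chr14:99098426-99098445, in intron 2 of *Dis3*. The right guide also had 1 match, on the minus strand at chr14:99094263-99094282, in intron 5. *Dis3* itself (ENSMUSG00000033166) is annotated on the minus strand at chr14:99075206-99099770. Exons outside the deletion can still be counted, so the counts of *Dis3* test the genotype only in part.

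*Dis3* was at 15.97, 2.53, 0 and 13.9 CPM (counts scaled to the size of the library, as defined with the processing) in the E2.5 null embryos and at 12.3, 20.8 and 10.1 CPM in the E2.75 null embryos, and these ranges overlapped. Its log2 fold change with stage was 0.79 ± 0.74 (SE), with an adjusted p of 0.651. In wild-type embryos *Dis3* was at 85.0 CPM ± 52.2 (SD, n = 6) at E2.5 and 94.0 ± 25.3 (SD, n = 3) at E2.75. One wild-type library, E2.5 WT replicate 6, lay at 17.9 CPM, within the range of the null embryos. No null embryo reached the lowest het embryo, at 29.8 CPM.

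The null libraries held between 1690192 and 9993650 counts on genes, and the 2 shallowest were E2.75 embryos. Gene counts per ERCC count, a measure of the amount of RNA captured, were 15.0, 14.1, 15.0 and 13.2 at E2.5 and 18.95, 29.7 and 22.7 at E2.75, so that every older embryo lay above every younger one. The mean rose 1.66-fold, from 14.4 ± 0.871 (SD, n = 4) to 23.8 ± 5.43 (SD, n = 3; exact permutation test, two-sided, p = 0.0286, the smallest that 35 assignments allow, and 0.0714 after adjustment over 5 library measures). More RNA per cell and more cells per embryo cannot be told apart in these libraries. At an equal depth of 1690192 counts, 13719 to 14418 genes were detected in E2.5 null embryos and 15432 to 16236 in E2.75 null embryos (exact permutation p = 0.0286, adjusted p = 0.0714). Reads outside annotated exons were 35.7% ± 3.46 (SD, n = 4) at E2.5 and 42.6% ± 1.43 (SD, n = 3) at E2.75 (exact permutation p = 0.0571, adjusted p = 0.0952). The mitochondrial share of the counts, 7.15% ± 2.77 and 6.05% ± 2.10, did not differ beyond its spread (exact permutation p = 0.629). In wild-type embryos gene counts per ERCC count rose 1.52-fold between the same stages (exact permutation p = 0.0357, adjusted p = 0.0893). The part of depth, RNA content and reads outside exons in the changes of single genes was not tested. With each library thinned to the smallest, 389 genes were called higher and 301 lower, 204 and 266 of them also called at full depth (a setting chosen after the data were seen).

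**Figure D1:**
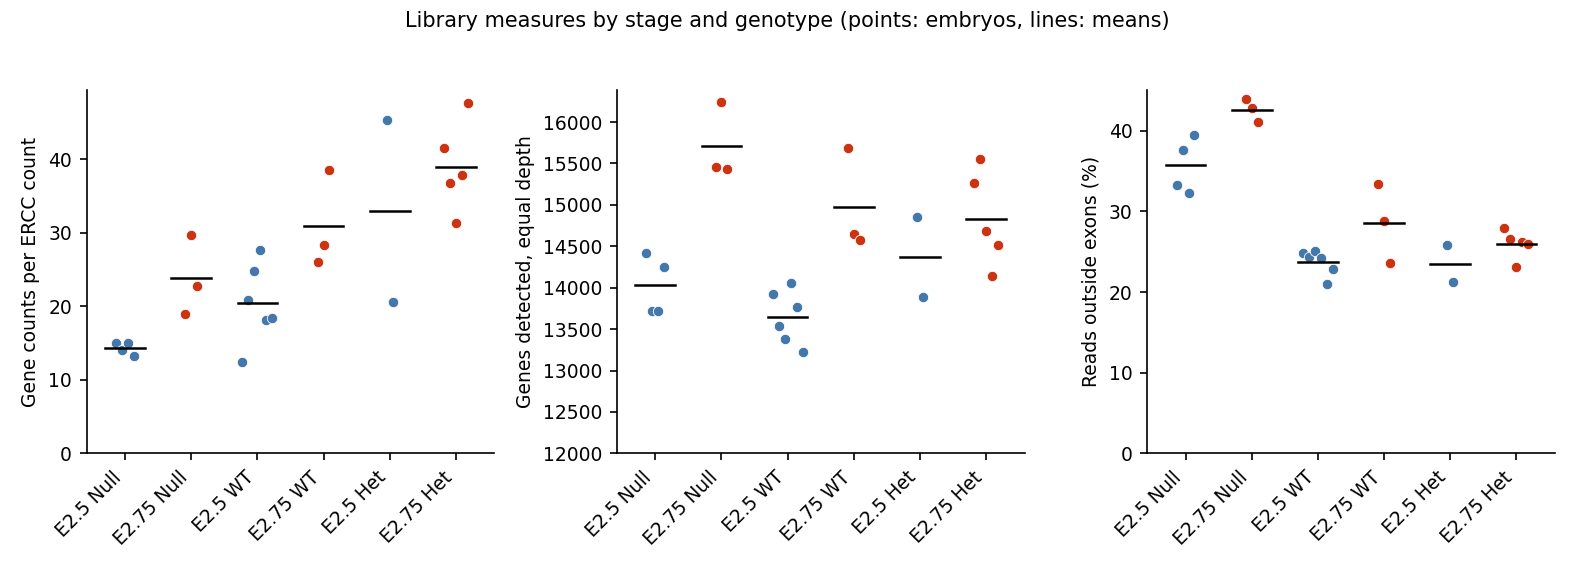
Gene counts per ERCC count, genes detected at an equal depth of 1690192 counts and the percentage of reads outside exons, for each embryo (points; blue E2.5, red E2.75) with the group mean (line). In null embryos the counts per ERCC and the genes detected lie higher in all 3 E2.75 embryos than in all 4 E2.5 embryos, and the middle axis does not start at 0.

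Among 18677 genes tested, 231 (1.24%) were called higher and 330 (1.77%) lower at E2.75 than at E2.5 in null embryos. A gene was called when its adjusted p was under 0.1 and its log2 fold change was beyond 1 in size, with the spread estimated over all 23 embryos. The called rises had a median log2 fold change of 3.23 and the called falls of -1.47. Their median level over the null embryos also differed, at 13.4 CPM for the rises and 136 CPM for the falls. The part of level in the size of the changes was not tested. Rises were also fewer with the null embryos fitted alone, but more numerous than falls with DESeq2 (798 and 582) and limma voom (447 and 252). All 4 E2.5 null embryos held 0 counts of 41 of the genes called higher, and all 3 E2.75 null embryos held 0 counts of 8 of those called lower. Over all genes tested, 1101 (5.89%) were higher in every E2.75 null embryo than in every E2.5 null embryo and 1129 (6.04%) were lower. Of the called genes, 192 rises and 294 falls had no overlap of this kind, a share that the call itself favours.

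These counts depended on the embryos and on the scaling. When only the null embryos were fitted, 50 genes were called higher and 85 lower among 12008 tested, and 45 and 84 of them were also called with all embryos. Without E2.75 null replicate 2 the counts were 49 and 82, and without replicate 3 they were 48 and 100. Without E2.5 null replicate 2 they were 116 and 216, without replicate 3 they were 102 and 155, and without replicate 1 they were 355 and 412. Scaled to the ERCC counts, the median of all genes moved up by 0.97 on the log2 scale, 1969 genes were called higher and 39 lower, and 324 of the 330 falls kept their sign. A fall below therefore means a fall relative to the other genes of the embryo. With relative log expression factors 273 genes were called higher and 228 lower, so that rises were 54.5% of the calls and not 41.2%.

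**Figure D2:**
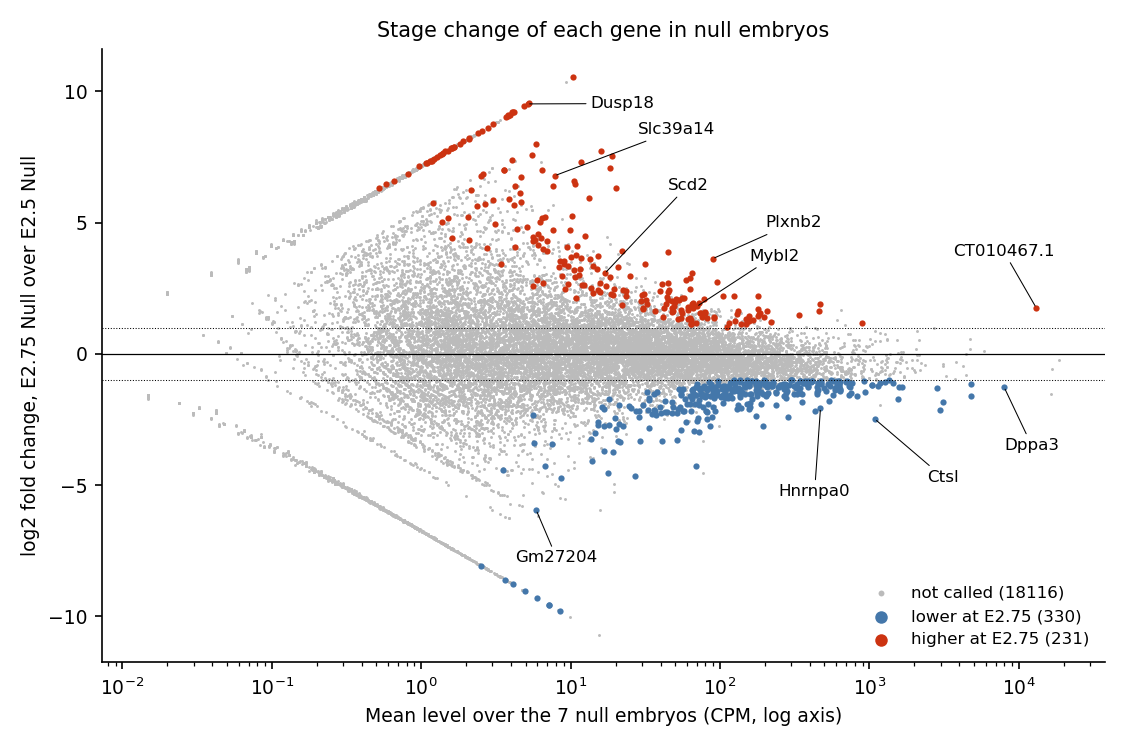
Log2 fold change of each gene between E2.75 and E2.5 null embryos against its mean level over the 7 null embryos in CPM, on a log axis. Red points are the 231 genes called higher, blue points the 330 called lower and grey points the rest; dotted lines mark a log2 fold change of 1, and the outer diagonals are genes with 0 counts at one stage.

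The 12 coding genes that fell with the smallest p among those without overlap were all expressed in every E2.5 null embryo. *Hnrnpa0*, an RNA-binding protein, was at 554, 825, 661 and 759 CPM in E2.5 embryos and at 160, 177 and 161 CPM at E2.75. Its log2 fold change was -2.08 ± 0.27 (SE), the smallest p of all genes, and the adjusted p was 0.00106. *Ctsl*, the lysosomal protease cathepsin L, fell from 1866, 1327, 2380 and 1161 CPM to 346, 256 and 298 CPM (log2 fold change -2.49 ± 0.35, adjusted p = 0.00133). For both genes the highest E2.75 embryo lay far below the lowest E2.5 embryo. *Dppa3* (Stella), an oocyte factor that guards maternal DNA methylation, was at 11307, 10830, 11402 and 9207 CPM at E2.5. It was at 4963, 4434 and 3821 CPM at E2.75, a log2 fold change of -1.28 ± 0.21 with an adjusted p of 0.00613. *Ubtfl1*, which belongs to a family of near-identical genes that are transcribed at the 2-cell stage, fell from between 162 and 335 CPM to between 45 and 57.2 CPM (log2 fold change -2.36 ± 0.42).

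*Tipin*, which protects stalled replication forks, fell from between 278 and 548 CPM to between 53.5 and 135 CPM (log2 fold change -2.40 ± 0.38, adjusted p = 0.00489). *Brix1*, an assembly factor of the large ribosomal subunit, fell from 1023 CPM ± 80.0 (SD, n = 4) to 341 ± 67.3 (SD, n = 3). *Taf12*, a subunit of the general transcription factor TFIID, fell from 60.9 ± 23.4 to 12.8 ± 2.94 CPM. *Ecd*, a cell cycle and splicing factor, fell from 231 ± 60.4 to 63.8 ± 6.19 CPM. *Gcsh*, the H protein of the glycine cleavage system, fell from 3811 ± 547 to 1530 ± 332 CPM. *Pgap2*, an enzyme of GPI anchor remodelling, had the largest fall of these 12 coding genes, from 86.9 ± 36.6 to 11.8 ± 4.99 CPM (log2 fold change -2.90 ± 0.49). The zinc finger gene *Zfp51* and *Fam210a*, which codes for a mitochondrial protein, had log2 fold changes of -2.76 and -2.03. All 12 were also called when the null embryos were fitted alone, with adjusted p from 0.0140 to 0.0972, and when any 1 of the 7 embryos was left out. Scaled to ERCC, all 12 kept their sign, but *Ecd*, *Brix1*, *Taf12*, *Dppa3*, *Fam210a*, *Gcsh* and *Ubtfl1* were no longer called. The log2 fold change of *Dppa3* was then -0.30 and that of *Gcsh* -0.34. *Ctsl* and *Fam210a* overlap exons of *Gm47123* and *Ldlrad4* on the other strand, and reads were counted without regard to strand.

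Of the 12 coding genes that rose with the smallest p among those without overlap, *Mybl2*, *Plxnb2* and *Scd2* were above 2 CPM in every E2.5 null embryo. *Mybl2*, a transcription factor of dividing cells, was at 47.7, 32.7, 28.5 and 26.5 CPM in E2.5 embryos and at 119, 90.0 and 146 CPM at E2.75 (log2 fold change 1.80 ± 0.34, adjusted p = 0.0108). *Plxnb2*, a receptor for semaphorins, rose from 20.7, 3.37, 11.6 and 25.3 CPM to 145, 204 and 217 CPM (log2 fold change 3.63 ± 0.68, adjusted p = 0.0108). Both genes were higher in each E2.75 embryo than in any E2.5 embryo. *Scd2*, a desaturase that makes monounsaturated fatty acids, was at 2.59, 4.55, 2.38 and 6.85 CPM and then at 32.2, 32.6 and 37.7 CPM (log2 fold change 3.07 ± 0.60). *Slc39a14*, an importer of zinc and iron, went from at most 0.311 CPM to 2.37, 36.6 and 15.5 CPM, so that the older embryos themselves differed widely. *Cat*, the peroxide-degrading catalase, went from at most 1.52 CPM to 7.095, 99.9 and 32.2 CPM. *Lrrc8e*, a subunit of volume-regulated anion channels, went from at most 0.594 CPM to 11.4, 26.2 and 34.9 CPM. *Naa11*, an N-terminal acetyltransferase, went from at most 1.19 CPM to 13.2, 23.2 and 5.66 CPM.

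*N4bp3*, *Dusp18* and *Mob3a* had 0 counts in all 4 E2.5 null embryos and 112, 156 and 80 counts over the E2.75 null embryos. With 0 counts over the younger group taken to allow 3 counts, *N4bp3* was at least 76.5-fold, *Dusp18*, a protein phosphatase, at least 107-fold and *Mob3a* at least 54.7-fold higher at E2.75, and these limits cover counting error only. *E2f7*, a repressor of the E2F family, had 1 count over the E2.5 null embryos and 175 over the E2.75 null embryos, a ratio of 359 with an exact counting interval from 63.5 to 14246. *Cdyl2*, a chromodomain protein, was at 51.1, 7.91 and 9.94 CPM at E2.75, while the E2.5 null embryos held up to 2.05 CPM. *Mob3a* and *E2f7* overlap *Gm26541* and *1700020G17Rik* on the other strand. All 12 coding rises were called when any 1 embryo was left out, and 8 of the 10 that could be fitted in the null embryos alone were called there; *Naa11* (adjusted p = 0.138) and *Cdyl2* (adjusted p = 0.129) were not.

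**Figure D3:**
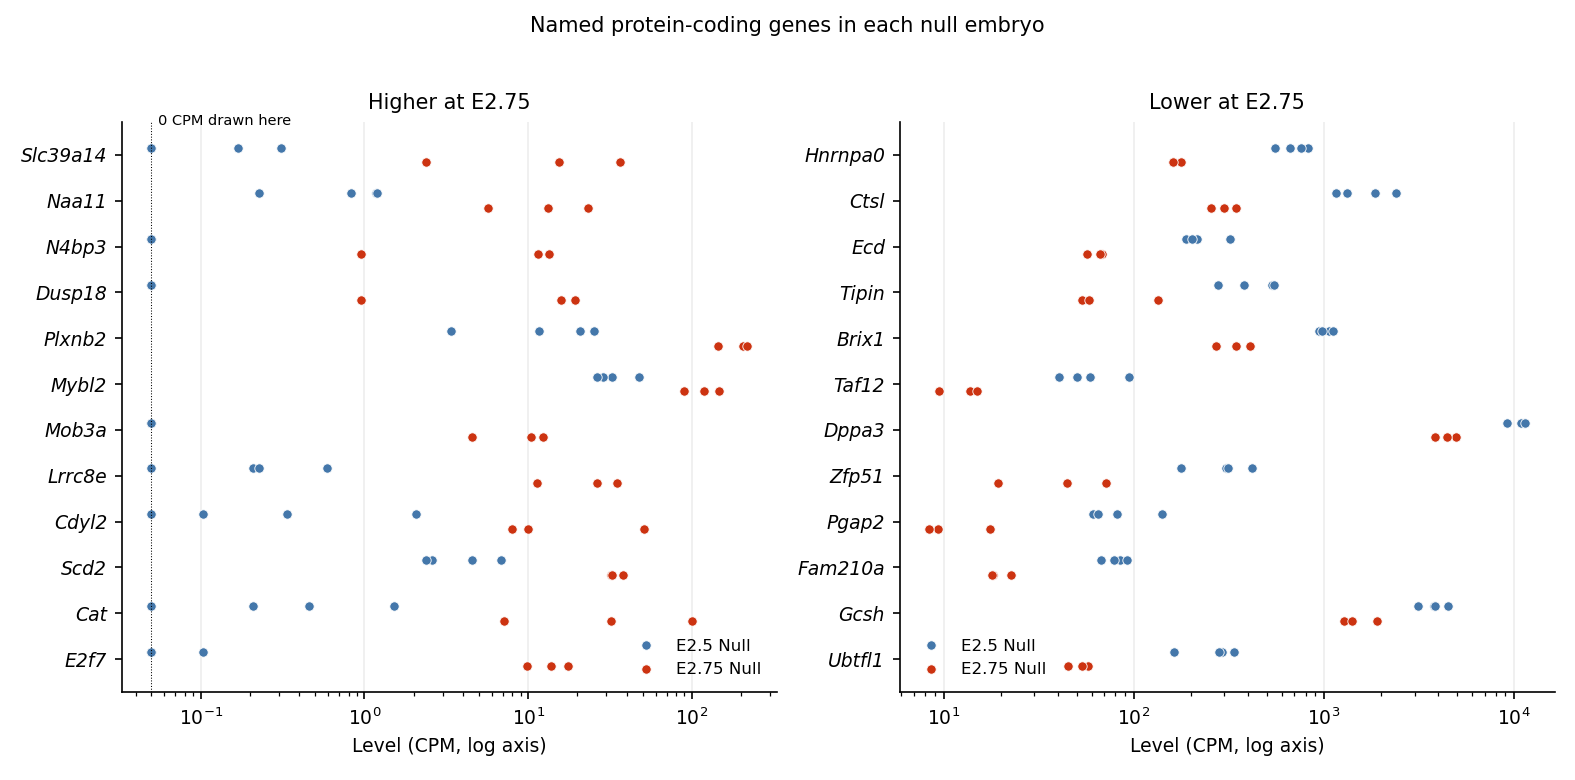
Level in CPM, on a log axis, of the 12 coding genes that rose and the 12 that fell with the smallest p, in each of the 4 E2.5 (blue) and 3 E2.75 (red) null embryos; values of 0 are drawn at 0.05. The genes were picked to have no overlap between stages, and the E2.5 points of *N4bp3*, *Dusp18* and *Mob3a* all lie at 0.

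In wild-type embryos of E2.5 several of these rising genes were already present. *Slc39a14* was at 10.2 CPM ± 7.15 (SD, n = 6) in E2.5 wild-type embryos against 0.120 ± 0.150 (SD, n = 4) in E2.5 null embryos, and at E2.75 the means were 16.95 ± 8.19 (SD, n = 3) and 18.1 ± 17.3 (SD, n = 3). *Naa11* was at 12.3 ± 4.64 CPM against 0.856 ± 0.451 at E2.5, and at 22.1 ± 10.6 against 14.05 ± 8.82 at E2.75. Over all 231 genes called higher, the mean of the E2.5 null embryos lay below that of the E2.5 wild-type embryos for 216 (93.5%), beside 51.0% of all genes tested, and at E2.75 it lay below wild-type for 81 (35.1%, beside 47.7% of all genes). The 330 genes called lower were below wild-type at E2.5 in 152 cases (46.1%) and at E2.75 in 278 (84.2%). The genes were chosen with the same null values, which favours these shares, so they are given as a description.

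Transcripts that do not code for protein made up a small share of the calls. Of 4865 such genes tested, 14 rose and 14 fell (0.58%), beside 217 rises and 316 falls among 13812 coding genes (3.86%). The shares were not matched for level, and depth limits the calls of genes of low level. By biotype, 1 of 831 lincRNAs rose and 5 fell, 2 of 812 antisense genes rose and 1 fell, 3 of 983 unconfirmed (TEC) transcripts rose and 0 fell, and 3 of 1218 processed pseudogenes rose and 5 fell. None of 64 snoRNAs and 28 snRNAs was called in edgeR's test, with 2 and 4 of them at an unadjusted p under 0.05, while DESeq2 called 1 and 2 and limma voom 1 and 3. The RNA was selected by its poly(A) tail, so transcripts without one were not measured as such.

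The non-coding gene with the smallest p was *CT010467.1* (ENSMUSG00000106106), annotated as rRNA at chr17:39846353-39848827 on the minus strand. It was at 6639, 8231, 5719 and 5304 CPM in E2.5 null embryos and at 21131, 22822 and 21725 CPM in E2.75 null embryos. The 3 older embryos thus lay close together and far above the younger ones (log2 fold change 1.76 ± 0.30, adjusted p = 0.00637, and 0.0140 with the null embryos alone). In wild-type embryos the log2 fold change was -0.14 ± 0.28, and the difference between the genotypes was 1.89 ± 0.42 with an adjusted p of 0.203, which did not pass the test. In het embryos it was at 8811 CPM ± 2419 (SD, n = 2) and 14484 ± 5452 (SD, n = 5). The gene is a copy of repeated rDNA and overlaps *Gm42418* on the other strand, so its reads may stem from other copies. *Mir6236*, an annotated miRNA gene counted here over its 123 bp, rose from between 7.13 and 24.1 CPM to between 63.3 and 113 CPM (log2 fold change 2.696 ± 0.59), and *Gm15564*, an antisense gene, from between 8.45 and 20.0 to between 40.7 and 68.2 CPM. *Gm43581*, which lies in an intron, had 0 counts at E2.5 and reached 0.473, 5.44 and 22.6 CPM in the older embryos. The falls were the lincRNAs *Gm27204* and *EU599041* and the processed pseudogenes *Mpc1-ps* and *Gm11517*, whose reads cannot be kept apart from those of their parent genes with certainty. *EU599041* was at 32.7, 35.2, 21.1 and 34.9 CPM and then at 8.04, 6.43 and 9.39 CPM (log2 fold change -1.95 ± 0.49).

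The gene lists that follow group genes by textbook role. In all, 33 of their genes were called, and fewer were called without an embryo, 11 without E2.75 null replicate 2, 13 without E2.75 null replicate 3, 18 without E2.5 null replicate 3 and 21 without E2.5 null replicate 2. Of the 32 that could be fitted in the null embryos alone, 14 were called there, and 10 of the 33 were called whichever embryo was left out.

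Lineage genes were called at about the share of all genes, 3.004%. Of 24 pluripotency genes tested, 1 rose and 0 fell (4.17%), with a median log2 fold change of 0.34 beside 0.00 for all genes. *Tfcp2l1*, a factor of naive pluripotency, was at 273, 230, 133 and 224 CPM in E2.5 embryos and at 349, 1200 and 879 CPM at E2.75 (log2 fold change 1.91 ± 0.51, adjusted p = 0.0554). *Nanog* was at 24.0, 21.1, 20.5 and 24.4 CPM and then at 61.0, 44.0 and 54.4 CPM, without overlap, but its log2 fold change of 1.24 ± 0.71 had an adjusted p of 0.385. *Pou5f1*, which codes for OCT4, did not overlap either, at 846 ± 132 and 1242 ± 107 CPM (log2 fold change 0.55 ± 0.35, adjusted p = 0.435). *Sox15* had a log2 fold change of -0.73 ± 0.32 (adjusted p = 0.251) and *Pou6f1*, which the study describes as a target of DIS3, of -0.17 ± 0.68 (adjusted p = 0.970). *Pou6f1* was at 65.8, 21.4, 28.2 and 58.4 CPM in E2.5 embryos and at 75.2, 23.7 and 17.7 CPM at E2.75, so that each stage held embryos at both ends of the range. In wild-type embryos *Pou6f1* was called higher at E2.75, from a mean of 10.7 to 36.6 CPM (log2 fold change 1.79 ± 0.61, adjusted p = 0.0873). The difference between the genotypes did not pass the test (-1.96 ± 0.93, adjusted p = 0.449).

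None of 24 trophectoderm genes was called by edgeR, with 3 at an unadjusted p under 0.05 and 2 called by DESeq2, and their median was 0.13. *Cdx2*, the factor that sets up trophectoderm, was at 13.9, 0, 0 and 0.228 CPM in E2.5 embryos and at 23.2, 30.7 and 14.4 CPM at E2.75 (log2 fold change 2.58 ± 1.30, adjusted p = 0.320), so that a single E2.5 embryo carried nearly all of its early counts. Of 19 genes of primitive endoderm and FGF signalling, *Etv5*, an ETS factor downstream of FGF, was called (5.26%). It was at 4.46, 0, 0.594 and 1.60 CPM and then at 1.42, 33.1 and 34.4 CPM, and the stages overlapped because of 1 older embryo. *Gata6*, a factor of primitive endoderm, was at 221 ± 44.0 and 362 ± 53.9 CPM (adjusted p = 0.323). None of 23 Hippo pathway genes was called by edgeR (median -0.07), with 2 at an unadjusted p under 0.05 and 1 called by DESeq2.

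Genes of junctions, polarity and cavitation held the largest share of calls, 6 of 37 tested (16.2%, beside 3.004% of all genes). Their median was the highest of the lists with 8 or more genes tested, at 0.78, beside 0.18 in wild-type and 0.26 in het embryos. Their log2 fold change was above 0 for 30 genes. *Aqp3*, a channel for water and glycerol, rose from 85.6, 18.4, 23.8 and 35.6 CPM to 147, 218 and 205 CPM (log2 fold change 2.21 ± 0.46, adjusted p = 0.0161). *Ctnnb1*, which codes for the adherens junction protein β-catenin, rose from between 10.0 and 45.5 to between 60.1 and 158 CPM (1.93 ± 0.48, adjusted p = 0.0398). *Pard3*, an apical polarity protein, rose from between 13.9 and 18.7 to between 32.6 and 64.8 CPM (1.70 ± 0.43, adjusted p = 0.0420). In wild-type embryos the log2 fold changes of these 3 genes were -0.02, 0.76 and 0.24, and the difference between the genotypes did not pass the test (adjusted p from 0.292 to 0.529). *Actg1* was called on 1 count at E2.5 and 27 at E2.75, and near-identical actin copies make it uncertain. Against the rest, *Cldn7*, a claudin of tight junctions, fell from 326 ± 110 to 115 ± 42.0 CPM (log2 fold change -1.49 ± 0.30, adjusted p = 0.0129). *Atp1b3*, a subunit of the sodium pump, fell from 183 ± 60.2 to 72.3 ± 21.5 CPM (-1.33 ± 0.32, adjusted p = 0.0333). Fitted in the null embryos alone, *Aqp3* was the only 1 of these 6 genes past the threshold (adjusted p = 0.0852).

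Maternal transcripts had the lowest median. Of 43 oocyte and maternal-effect genes tested, 3 fell and 0 rose (6.98% called, beside 3.004% of all genes). Their log2 fold change was below 0 for 35, and the median was -1.12, beside -1.67 in wild-type and -0.94 in het embryos. *Omt2b*, an oocyte transcript, fell from 14.9, 24.3, 46.4 and 34.5 CPM to 1.42, 1.98 and 0.69 CPM (log2 fold change -4.55 ± 1.16, adjusted p = 0.0437), and its near-identical neighbour *Omt2a* fell in step with it. The summed level of the list was 11392 to 12954 CPM in E2.5 null embryos and 5797 to 7212 CPM in E2.75 null embryos, and in wild-type embryos 10770 to 22157 and then 4796 to 5419 CPM. *Dppa3* alone made up most of the sum in null embryos, with means of 10687 and 4406 CPM. The sum therefore mainly follows that gene and not the list as a whole. *Khdc3*, of the maternal subcortical complex, is an example against the median, with a log2 fold change of 0.52 ± 0.49 in null embryos. In wild-type embryos it fell by 2.13 on the log2 scale, and the difference between the genotypes had an adjusted p of 0.267. Of 27 genes of the 2-cell stage, *Ubtfl1* and *Klf17* fell and none rose (7.41%, beside 3.004% of all genes). The median of the 27 genes was -0.87, with 9 above 0 and 17 below 0. It was 0.01 in wild-type and 1.88 in het embryos, so the median of this list also differed widely between embryos that carry *Dis3*. *Klf17*, a Krüppel-like factor, was at 154, 167, 166 and 47.0 CPM and then at 30.7, 34.6 and 32.2 CPM (log2 fold change -2.04 ± 0.62, adjusted p = 0.0933); without 1 or another embryo the call was lost in 6 of 7 fits. Scaled to ERCC, the medians were -0.14 for the maternal list and 0.00 for the 2-cell list, and -1.11 and -0.97 relative to all genes.

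Of 27 exosome and cofactor genes, 2 fell and 1 rose (11.1%, beside 3.004% of all genes). *Exosc3*, a core subunit, fell from 257, 355, 278 and 286 CPM to 158, 95.9 and 127 CPM (log2 fold change -1.21 ± 0.27, adjusted p = 0.0226). *Wdr61*, a subunit of the SKI complex that feeds the cytoplasmic exosome, fell from 530 ± 128 to 256 ± 68.3 CPM (-1.05 ± 0.28, adjusted p = 0.0560), a value that turned to 0.02 with ERCC scaling. Both fell by similar amounts in wild-type embryos (log2 fold changes -1.10 and -1.08). *Hbs1l*, which rescues stalled ribosomes, rose from 1.52 ± 1.19 to 17.8 ± 11.5 CPM (3.52 ± 1.01). The median of the 27 genes was -0.56, beside -0.09 in wild-type and -0.50 in het embryos. Of 68 ribosome biogenesis genes, 4 fell and 1 rose (7.35%), with 31 above 0, 37 below 0 and a median of -0.06. *Nip7*, needed for the large subunit, fell from 1038 ± 311 to 372 ± 122 CPM (-1.48 ± 0.31), and *Imp3*, of the small subunit processome, from 382 ± 126 to 135 ± 50.9 CPM (-1.50 ± 0.32). *Ddx52* and *Riok2*, which process the small subunit, fell by 1.01 each, and *Pwp2*, also of the processome, rose by 2.14 ± 0.63 (adjusted p = 0.0830). Of 82 cytosolic ribosomal protein genes, 72 were below 0 and 3 fell, with a median of -0.44 beside -1.07 in wild-type embryos, where 41 fell. Their median in het embryos was -0.33. *Rps27a* fell from between 253 and 303 to between 85.1 and 108 CPM (-1.51 ± 0.29, adjusted p = 0.0113), and processed copies of such genes make their counts uncertain. Scaled to ERCC, the median of the ribosomal protein genes became 0.52, which is -0.44 relative to all genes.

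Of 43 cyclins and cell cycle kinases, 3 fell and 0 rose (6.98%, beside 3.004% of all genes). *Ccnh* and *Cdk7* code for cyclin H and its kinase, the pair that activates other cyclin-dependent kinases and takes part in transcription. *Ccnh* was at 104, 130, 169 and 128 CPM and then at 53.9, 44.0 and 35.8 CPM (log2 fold change -1.58 ± 0.32, adjusted p = 0.0144). *Cdk7* was at 140, 303, 328 and 210 CPM and then at 95.1, 90.5 and 79.6 CPM (-1.47 ± 0.32, adjusted p = 0.0226). *Gmnn*, which codes for the replication licensing inhibitor geminin, fell from 963 ± 207 to 417 ± 41.7 CPM (-1.21 ± 0.30). The list had a median of -0.44 in null embryos and of 0.54 in wild-type embryos, where the log2 fold changes of *Ccnh* and *Cdk7* were 0.16 and -0.50. The difference between the genotypes did not pass the test for *Ccnh* (-1.74, adjusted p = 0.235) or *Cdk7* (-0.97, adjusted p = 0.396). The median of the list in het embryos was -0.02. *Ccnh* and *Cdk7* also fell there, with log2 fold changes of -0.92 and -1.05. Neither fall was called in het embryos (adjusted p = 0.338 and 0.252). *Ccnh* overlaps *Rasa1* on the other strand.

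Metabolic genes were called at about the share of all genes, 3.004%. Of 75 nuclear genes of oxidative phosphorylation, 3 fell and 0 rose (4%), with 56 below 0. Their median was -0.36, beside -0.96 in wild-type and -0.24 in het embryos. *Atp5c1* and *Atp5f1*, subunits of ATP synthase, fell from 1379 ± 187 to 606 ± 119 CPM (-1.19 ± 0.22) and from 793 ± 174 to 306 ± 56.0 CPM (-1.37 ± 0.26). *Ndufv2*, of complex I, fell by 1.55 ± 0.37. None of 8 genes of the mitochondrial genome was called by edgeR (median -0.18), with 1 at an unadjusted p under 0.05 and 1 called by DESeq2. Of 33 genes of sterol and fatty acid synthesis, *Scd2* alone was called (3.03%). Of the 33, 25 were above 0 and the median was 0.38, beside 1.21 in wild-type embryos, where 12 rose. The median of the list in het embryos was 1.29. *Acly*, which makes cytosolic acetyl-CoA, had a log2 fold change of 1.02 ± 0.42 (adjusted p = 0.221) in null embryos and of 1.72 in wild-type embryos. Scaled to ERCC, the medians of the oxidative phosphorylation and sterol lists in null embryos were 0.57 and 1.38, both above 0. Relative to all genes they were -0.39 and 0.42. Of 19 vacuolar ATPase subunits, *Atp6v0e* fell (-1.11 ± 0.28, adjusted p = 0.0409), and *Atp6v0b* passed the adjusted p but not the fold (-0.99 ± 0.26).

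Stress genes were called in 0 or 1 case a list, where the share of all genes was 3.004%. None of 30 p53 targets and none of 30 genes of the integrated and ER stress responses was called by edgeR, with medians of 0.37 and 0.51. Of these, 1 and 5 had an unadjusted p under 0.05, and DESeq2 called 1 and 2. The p53 target *Cdkn1a* was at 844 ± 227 and 572 ± 285 CPM. Of 18 genes of RNA sensing and interferon signalling, *Adar*, which edits double-stranded RNA, was called (5.56%). It was at 0, 0.337, 0 and 2.28 CPM in E2.5 embryos and at 11.8, 19.8 and 19.05 CPM at E2.75 (log2 fold change 4.71 ± 1.22, adjusted p = 0.0481). E2.5 wild-type embryos were spread from 0.4925 to 28.4 CPM of *Adar*. Markers of cells that could adhere to an embryo were low beside the pluripotency and oocyte lists. The 9 cumulus markers summed to 20.1 to 68.2 CPM in the younger and 27.6 to 31.2 CPM in the older null embryos, most of it *Amhr2*, with 4 markers at 0 in all null embryos. In wild-type embryos these markers summed to less, 1.48 to 32.9 CPM at E2.5, which overlaps the null range, and 7.74 to 14.2 CPM at E2.75. The 5 sperm markers summed to at most 3.57 CPM and the 5 blood markers to at most 1.76 CPM. The summed pluripotency and oocyte lists, at 9546 CPM or more and 5797 CPM or more in each null embryo, were those of the labelled tissue.

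**Figure D4:**
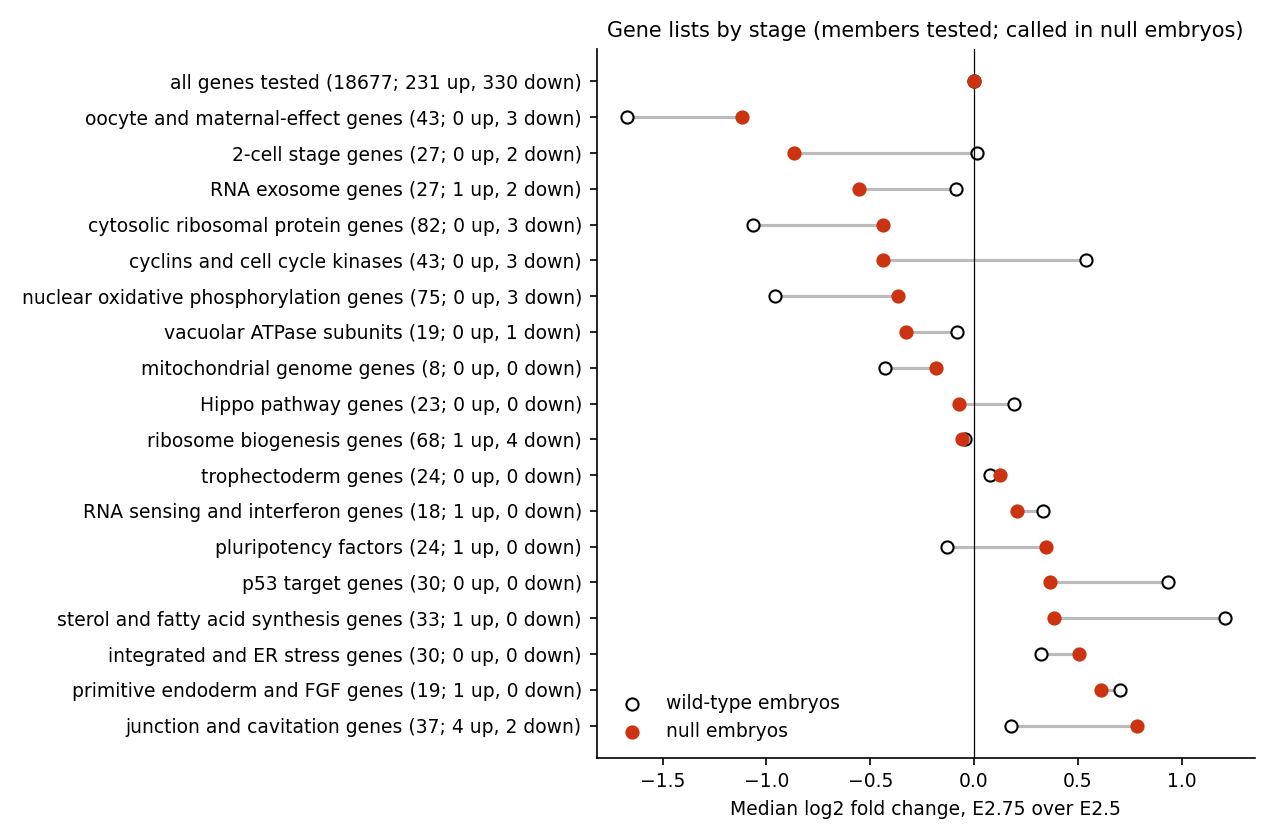
Median log2 fold change between E2.75 and E2.5 over the tested genes of each list, in null (red) and wild-type embryos (open), for lists with 8 or more genes tested, with the number tested and called in null embryos beside each name. Among these lists junction and cavitation genes have the highest median in null embryos, 0.78, and oocyte and maternal-effect genes the lowest, -1.12.

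The genes that changed with stage in wild-type embryos were followed in null embryos. They were called from wild-type values, but the filter and the spread came from all 23 embryos. In wild-type embryos 698 genes (3.74%) were called higher and 680 (3.64%) lower at E2.75. Of the 698, 537 (76.9%) were above 0 in null embryos, beside 49.9% of all genes tested. In null embryos 51 of the 698 (7.31%) were called higher, beside 1.24% of all genes, and 0 lower. Of the 680, 582 (85.6%) were below 0 in null embryos, beside 47.3% of all genes. In null embryos 96 of the 680 (14.1%) were called lower, beside 1.77% of all genes, and 0 higher. The median log2 fold change was 0.88 for the 698 genes, against 3.21 in the wild-type embryos that chose them and 1.16 in het embryos, and -0.59 for the 680 genes, against -1.40 and -0.64. A median in the embryos that chose the genes is inflated by that choice, and the reverse held too: the 231 rises and 330 falls chosen in null embryos, with medians of 3.23 and -1.47 there, had medians of 0.96 and -0.85 in wild-type embryos. With wild-type and null embryos fitted apart (a setting added after the data were seen), 402 genes were called higher and 495 lower in wild-type embryos. Of the 360 and 489 of these that could be fitted in null embryos, 311 (86.4%) were above 0 and 434 (88.8%) below 0 there, beside 50.5% and 49.5% of all 12008 genes fitted. Of the 360 and 489, 12 and 31 were called the same way, where 50 rises and 85 falls were called among all 12008 genes. With an adjusted p under 0.05 in wild-type embryos, 288 of 331 rises and 455 of 500 falls kept their sign in null embryos. Genes called the same way in both were, among those described above, *Hnrnpa0*, *Ctsl*, *Brix1*, *Taf12*, *Dppa3*, *Fam210a*, *Ubtfl1*, *Gm11517*, *Omt2b*, *Cldn7*, *Exosc3*, *Wdr61*, *Atp6v0e*, *Gmnn*, *Nip7*, *Rps27a* and *Ndufv2* for the falls and *N4bp3*, *Plxnb2*, *Mybl2*, *Mob3a*, *Cdyl2*, *Scd2*, *Hbs1l* and *Pwp2* for the rises. The log2 fold change of *Hnrnpa0*, for example, was -2.34 in wild-type, -1.52 in het and -2.08 in null embryos, and that of *Dppa3* was -1.65, -1.29 and -1.28.

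**Figure D5:**
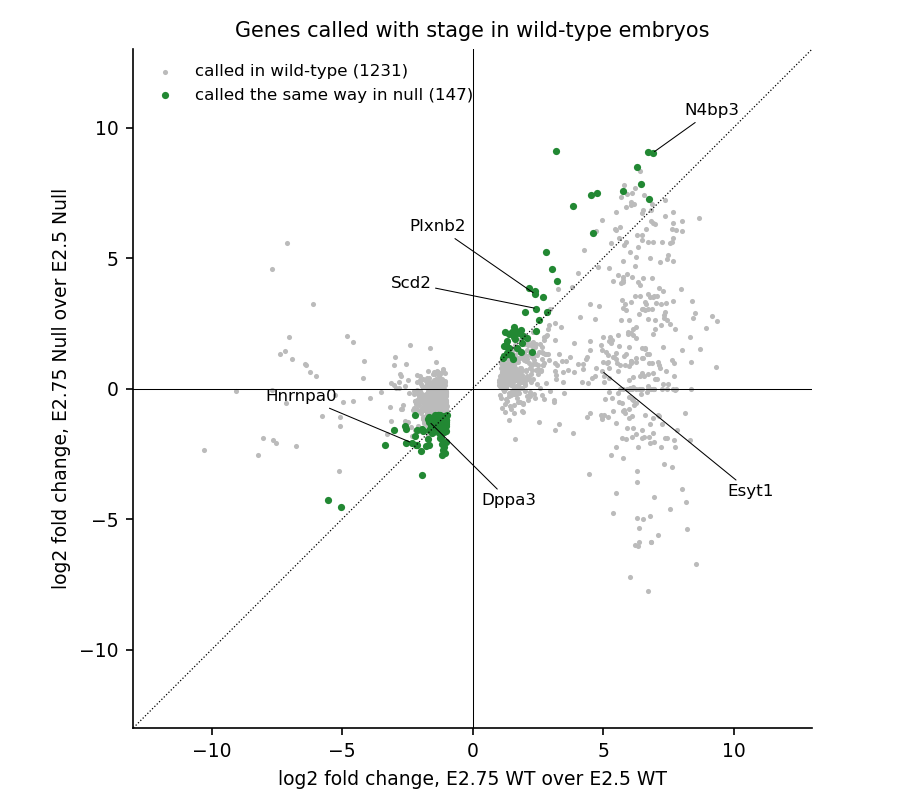
Log2 fold change between stages in null embryos against that in wild-type embryos, for the 1378 genes called in wild-type embryos; green points are the 147 called the same way in null embryos and the dotted line marks equal change. Most genes share a sign, with 537 of 698 rises above 0 and 582 of 680 falls below 0 in null embryos.

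No gene was called when the difference of the stage steps itself was tested (0%), while 2045 genes had an unadjusted p under 0.05 in edgeR's test, DESeq2 called 344 genes and limma voom called 4. In simulated data with changes of 4-fold and 16-fold this test called 5.5% and 43.5% of 200 changed genes, so that a difference of ordinary size would mostly be missed. Genes with the smallest p are given as values. *Hsp90aa1*, a heat shock chaperone, was at 1154, 1088, 891 and 1170 CPM in E2.5 null embryos and at 1540, 1734 and 1554 CPM in E2.75 null embryos, without overlap, whereas in wild-type embryos it was at 2079 ± 794 (SD, n = 6) and 791 ± 149 (SD, n = 3). The difference of its log2 fold changes was 1.97 ± 0.38 with an adjusted p of 0.203. *Nol7*, a nucleolar protein, was at 264 ± 32.0 and 238 ± 79.8 CPM in null embryos and at 295 ± 71.3 and 74.5 ± 5.69 CPM in wild-type embryos, and *Cbr2*, a carbonyl reductase, rose in null embryos from 1.64 ± 1.17 to 11.8 ± 9.15 CPM (adjusted p = 0.0481). *1010001N08Rik*, a non-coding gene that overlaps *Gata6* on the other strand, was at 44.96 ± 25.2 and 87.3 ± 32.7 CPM in null embryos and at 29.0 ± 15.9 and 4.85 ± 2.18 CPM in wild-type embryos. In het embryos the log2 fold changes of *Hsp90aa1*, *Nol7*, *Cbr2* and *1010001N08Rik* were -0.09, -0.79, 0.80 and -0.68.

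In the other direction, *Iars*, the isoleucyl-tRNA synthetase, was at 109, 56.9, 76.1 and 54.6 CPM in E2.5 null embryos and at 40.7, 37.1 and 40.9 CPM in E2.75 null embryos. In wild-type embryos it rose from 47.3 ± 29.0 to 180 ± 25.3 CPM, and the difference was -2.83 ± 0.52 (adjusted p = 0.203). *Esyt1*, which tethers the endoplasmic reticulum to the plasma membrane, was at 13.8 ± 8.73 and 21.98 ± 10.3 CPM in null embryos and rose from 2.43 ± 1.93 to 77.3 ± 39.7 CPM in wild-type embryos (difference -4.30 ± 0.97). *Ddah1*, which breaks down methylated arginines, fell in null embryos from 88.4 ± 38.9 to 23.6 ± 13.4 CPM (adjusted p = 0.0198), with 1 younger embryo, at 37.2 CPM, below the highest older one, at 38.8 CPM. *Ppan*, of the large ribosomal subunit, was at 165 ± 42.7 and 98.1 ± 14.7 CPM in null embryos and at 89.2 ± 26.7 and 197 ± 52.6 CPM in wild-type embryos. *Gm27204*, at 10.2 ± 4.33 CPM in E2.5 null embryos and 2 counts in all over the E2.75 null embryos, kept its level in the mean of wild-type embryos (15.4 ± 15.2 and 17.7 ± 10.1 CPM). In het embryos the log2 fold changes of *Iars*, *Esyt1*, *Ddah1*, *Ppan* and *Gm27204* were 0.10, 0.75, -0.40, 0.38 and -0.23. That of *Esyt1* was 0.66 in null embryos, close to the het value.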

How the data were processed

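RNA-seq counts of 23 single mouse embryos were used. Per the study's methods, the authors used Cutadapt 3.4 for trimming, STAR 2.7.8a for alignment (build GRCm38) and HTSeq 0.11.4 for counting by gene (intersection-strict, no strand). The deposited files hold whole-number counts per gene, not normalized, for 55487 genes, 92 ERCC spike-ins and 5 summary lines, and the latter 2 kinds of row were left out of library sizes and tests. Reads carry no molecular identifiers. The ChIP-seq peak lists were not used here. Groups came from the labels, and no label says which embryos shared a litter, so p-values measure the spread between these embryos.

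Counts were tested with edgeR 4.0.16 (quasi-likelihood, TMM, filterByExpr, R 4.3.3) in 6 groups of stage and genotype, with Benjamini-Hochberg adjustment over all genes tested and a gene was called below an adjusted p of 0.1 if its log2 fold change exceeded 1 in size. Standard errors are the log2 fold change over the root of the F statistic, and levels are TMM-scaled CPM with SD over embryos, not corrected for gene length. Gene positions, biotypes and overlaps are from GENCODE vM21, which holds 55227 of the identifiers. For library measures an exact permutation test over embryos was used. DESeq2 1.42.0, limma 3.58.1 (voom with quality weights by group), other scalings, filters and subsets were alternatives. Thinning to 1690192 counts was added after the data were seen. Tables were made with Python 3.11.15, pandas 2.3.3, NumPy 2.4.6 and SciPy 1.17.1.

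In data simulated at the means and library sizes of these embryos, 18% of the 200 altered genes were called in the null stage contrast at a 4-fold change (17426 genes tested) and 50.5% at a 16-fold change (17420 genes tested), with 0 in the wrong direction. Depth, 1690192 to 9993650 counts in null libraries, limits genes of low level, and intervals cover counting error only. No pair of null libraries agreed within sampling noise (chi-square per gene from 17.2 to 75.8), and each was counted as 1 sample.

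The named genes were, among called genes with no overlap between stages in null embryos, the 12 coding and 4 non-coding genes of smallest p in each direction, the 5 of smallest p in each direction of the difference between the genotypes, *Dis3*, *Pou6f1*, *Nanog*, *Cdx2* and *Sox15*, and of each list up to 6 called genes and then those of highest level up to 4. One gene that the rule names is not reported here. The embryos, lists and genes were chosen with earlier results of these data known. The 21 lists hold genes by textbook role and were not tested as sets; those whose names are not printed with a result above had no gene called.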

Additional observations from a re-analysis of the deposited data

Results flagged for a closer look

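A search for single embryos far from the rest of their group (Dixon's criterion at 95%) covered 42 groups of values of the named genes and flagged 3, where about 1 in 20 is flagged by chance. All 3 lay in the E2.5 null embryos. *Cdx2* was at 13.9 CPM in E2.5 null replicate 1 while the other 3 embryos were at 0 to 0.228 CPM. *Cdyl2* was at 2.05 CPM in E2.5 null replicate 4 while the others were at 0 to 0.337 CPM. *E2f7* was at 0.104 CPM in E2.5 null replicate 1, which is 1 count, and at 0 in the other embryos. The reasons were not tested.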

How the results depend on the processing

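With null embryos of E2.75 against E2.5, 231 genes were called higher and 330 lower. The counts were 50 and 85 with only the null embryos fitted, 798 and 582 with DESeq2, 447 and 252 with limma voom, 1969 and 39 with ERCC normalization, 510 and 312 with no filter, and 389 and 301 after thinning. Leaving out 1 embryo gave 48 to 355 higher and 82 to 412 lower. In wild-type embryos 1378 genes were called, against 897 with only wild-type embryos fitted, 2105 with limma voom, 3277 with ERCC normalization and 2104 with no filter, and 747 to 1530 without 1 embryo. The difference of the stage steps, 0 genes, became 344 with DESeq2, 4 with limma voom and 221 with no filter, and 0 to 5 without 1 embryo (2 without E2.5 WT replicate 6). Of the wild-type stage genes, 51 rises and 96 falls were called the same way in null embryos, and 12 and 31 with the genotypes fitted apart. The causes of these shifts were not tested. Without 1 null embryo, too few remain for the exact test of a library measure to reach p = 0.05, so its losses there say nothing about stability. In those subsets the stage difference in gene counts per ERCC count was 6.49 to 11.8 and in genes detected 1414 to 1816. The difference in mitochondrial share ran from -1.88 to 0.242 percentage points, and changed sign without E2.5 null replicate 4 (0.242) and without E2.75 null replicate 2 (0.0949). Of the 141 genes with values named by the rule, 101 to 132 kept their sign and their side of the threshold without 1 null embryo, 125 to 131 with another tool, scaling by relative log expression, filter, thinning or the replicate block, 108 with only the null embryos fitted and 52 with ERCC normalization. The fold change of *Wdr61* turned to 0.016 with ERCC normalization. The replicate numbers did not pair the embryos (correlations of deviations of -0.100, -0.0207 and -0.00745 between same-numbered null embryos); with the replicate block 200 genes were called higher and 269 lower in null embryos, 913 in wild-type embryos and 2 for the difference. Without E2.5 WT replicate 6, 283 and 356 genes were called in null embryos.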
